A study of Rattus norvegicus with 22 samples.

Results

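The genes described here are 9 rat genes of antioxidant defence, measured in the lung after experimental pulmonary embolism (PE). They are Nfe2l2, which encodes the transcription factor NRF2, its well-known targets Nqo1, Gclc, Gclm, Txnrd1 and Srxn1, and the extracellular or mitochondrial enzymes Sod2, Sod3 and Gpx3. They were taken by gene name. Of 31042 probe sets on the array, 13 carried one of these symbols, and they stand for 9 of the 14217 genes with a symbol of their own. Gclc and Txnrd1 had 2 probe sets each, Srxn1 had 3 and the other 6 genes had 1. The main value of a gene is from its probe set with the highest mean signal.

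Male Sprague–Dawley rats of about 350 g by the labels (the methods give a higher weight), whose age is not given in the sources used here, received 1 injection into the right jugular vein, and RNA of the right lung of each of 22 rats was run on an Affymetrix array of the whole rat genome. Rats of the Vehicle groups (n = 3 at 2 h and at 18 h) received 0.15 ml of 0.01% Tween-20 per 100 g of body weight. Those of the Mild PE groups (n = 4 at each time) received 1300000 polystyrene microspheres of 25 micron per 100 g in 0.10 ml, and those of the Severe PE groups (n = 4 at each time) received 2000000 per 100 g in 0.15 ml. All lungs were lavaged with 8 ml of saline before they were removed, so cells that lavage takes out of the airspaces are in part missing from every group. Microspheres block small pulmonary arteries but carry no clot or platelets, and the injected volume differed between Mild PE and its Vehicle. Values are log2 signals after quantile normalization, given as mean ± SD over rats, and a difference of 1 is a doubling. To be called changed, a gene needed a limma p below 0.05 after Benjamini-Hochberg adjustment over all probe sets, and group means at least 1.5-fold apart. Where groups are said not to overlap, the share of all probe sets that separate in this way was not counted. With so few rats such a separation only describes the values. Only 3 or 4 arrays per group limit the precision, and the Mild PE and Severe PE comparisons at a given time share their Vehicle arrays.

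NRF2 is held in the cytoplasm by KEAP1, which sends it for degradation. Oxidants and electrophiles modify KEAP1, and NRF2 then accumulates, enters the nucleus and, paired with a small MAF protein, binds the antioxidant response element (ARE) of genes for detoxification and for the glutathione and thioredoxin systems. Most of this control acts on the NRF2 protein, so the level of its mRNA is not a measure of its activity. Sod2 is the manganese superoxide dismutase of mitochondria and is also a classical target of inflammatory cytokines through NF-kB. Sod3 is the superoxide dismutase outside cells, bound to the matrix of vessel walls and airways, for which the lung is known. Gpx3 is the secreted glutathione peroxidase, which removes hydrogen peroxide and lipid hydroperoxides from plasma and extracellular fluid.

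Because the array reads only the transcript, the sequence before the transcription start is shown for the members whose window held a motif of oxidant or stress response, so that the results can be read beside it. RefSeq promoter windows of 300 bases (250 before the start and 50 after it, build GRCr8) were given for 8 of the 9 genes, 2 of them for Txnrd1, and none for Sod3. They were searched on both strands for the ARE core TGACNNNGC and for the AP-1 motif TGANTCA. The ARE core was found in 1 window each of Nfe2l2, Gclm, Txnrd1 and Sod2, and among 33469 rat promoter windows of the same length 12.1% held it. The AP-1 motif was found in the window of Srxn1, at 2 places, and 7.33% of all windows held it. The motifs can overlap, but no match in these genes was a match to both. In the stretches below, written 5′ to 3′ on the strand of the gene, capitals mark the matches, and the ARE cores of all 3 genes printed lie on the opposite strand and are therefore read from right to left. Each stretch ends at or before the second base of the transcript.
Gclm, chr2:213031923-213032031, plus strand, match at −172 to −164: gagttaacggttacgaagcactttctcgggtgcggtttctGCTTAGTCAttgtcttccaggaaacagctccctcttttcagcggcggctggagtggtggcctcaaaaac
Txnrd1, chr7:22755914-22756022, minus strand, match at −78 to −70: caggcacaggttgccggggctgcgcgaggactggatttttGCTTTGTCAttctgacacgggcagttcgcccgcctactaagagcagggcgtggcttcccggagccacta
Srxn1, chr3:161064710-161064813, plus strand, matches at −62 to −56 and −5 to 2: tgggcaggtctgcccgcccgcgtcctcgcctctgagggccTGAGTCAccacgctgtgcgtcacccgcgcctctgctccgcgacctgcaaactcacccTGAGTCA
Sod2, chr1:50050167-50050243, minus strand, match at −35 to −27: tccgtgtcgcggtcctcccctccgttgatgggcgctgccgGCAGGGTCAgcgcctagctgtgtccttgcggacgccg
The match in Nfe2l2 lies past the start, at 39 to 47, and is not shown. The windows of Nqo1, Gclc and Gpx3, and that of the other Txnrd1 start, held neither motif, which says only that these letters are not within this window. A match is a description of the letters and not a site shown to be bound.

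At 18 h the 9 genes went separate ways. Sod2, Txnrd1 and Srxn1 rose in Severe PE, Sod3 and Nqo1 fell, and the subunits of the enzyme that makes glutathione, Gclc and Gclm, were not called in any comparison. In 18-h Severe PE 5 of the 9 members were called against 18-h Vehicle (3 higher, 2 lower), where 7.13% of all probe sets were. In 18-h Mild PE 2 of 9 were called (Sod2 higher, Sod3 lower), where 1.03% of all probe sets were. At 2 h none of the 9 was called in Mild PE (background 0.332%) or in Severe PE (0.0226%) with limma. An unadjusted p under 0.05 was found for 3 and 1 of them, and for 4106 and 2380 of all 31042 probe sets. The median difference of the 9 members was 0.14 after Mild PE and 0.30 after Severe PE at 18 h. That of all probe sets was 0.00 in both, which quantile normalization all but fixes in advance, so it is no test of the members.

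**Figure D1:**
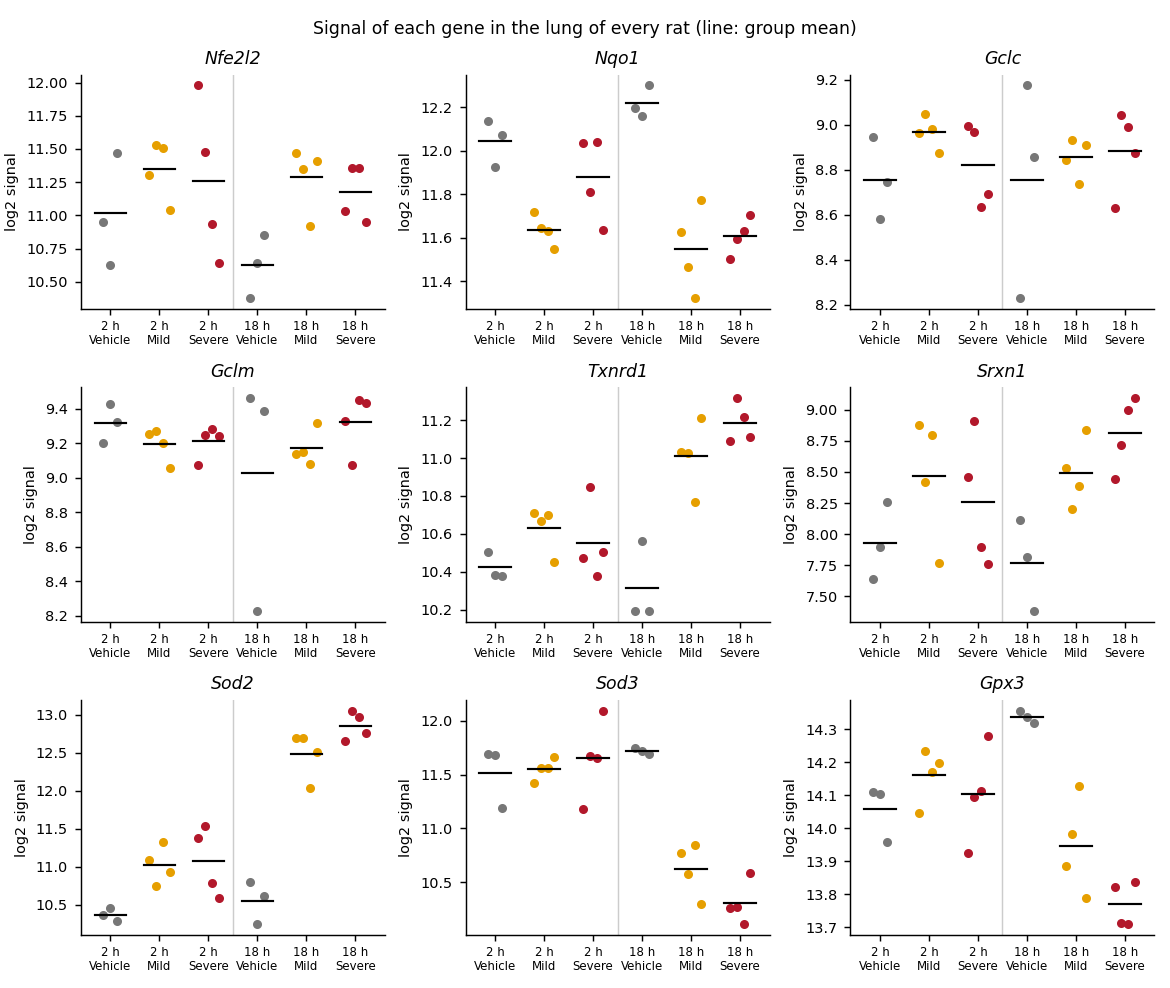
Log2 signal of the main probe set of each gene (vertical axis, its own scale in each panel) in every rat, by time and treatment, with 1 point per rat and a line at the group mean. In the Sod2 panel the 8 PE rats at 18 h lie between 12.04 and 13.05, above all Vehicle rats, and in the Sod3 panel they lie between 10.11 and 10.85, below all Vehicle rats.

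Sod2, the mitochondrial superoxide dismutase, had the largest change among the members at 18 h. At 2 h the 3 Vehicle rats read 10.37, 10.45 and 10.29, the 4 Mild PE rats 11.08, 10.74, 11.33 and 10.93, and the 4 Severe PE rats 11.38, 11.54, 10.78 and 10.59. All 8 PE rats lay above all 3 Vehicle rats at 2 h, which is a description and not a call. The differences of 0.65 (SE 0.14, adjusted p = 0.164) in 2-h Mild PE and 0.70 (SE 0.26, adjusted p = 0.597) in 2-h Severe PE did not pass the test.

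At 18 h the Vehicle rats read 10.79, 10.25 and 10.62 for Sod2, the Mild PE rats 12.69, 12.69, 12.04 and 12.52, and the Severe PE rats 12.66, 13.05, 12.97 and 12.77. The lowest PE rat was more than 1 log2 unit above the highest Vehicle rat. Sod2 was 3.82-fold higher in 18-h Mild PE (1.93, SE 0.21, adjusted p = 0.0331) and 4.95-fold higher in 18-h Severe PE (2.31, SE 0.16, adjusted p = 0.00466). The order of the 18-h means was Vehicle (10.55 ± 0.28), Mild PE (12.49 ± 0.31) and Severe PE (12.86 ± 0.18), and the step from Mild to Severe PE, 0.37 (95% interval −0.03 to 0.78), was not called (adjusted p = 0.395). The call in 18-h Severe PE held when any 1 of the 7 arrays was left out, with differences from 2.15 to 2.43. The call in 18-h Mild PE held in 1 of 7 such fits, and the difference itself stayed between 1.78 and 2.08.

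Sod3, the superoxide dismutase outside cells, moved the opposite way at 18 h and was not called at 2 h. In the 2-h groups the Vehicle rats read 11.69, 11.68 and 11.19, the Mild PE rats 11.42, 11.56, 11.56 and 11.66, and the Severe PE rats 11.18, 11.67, 11.65 and 12.09, and the 3 groups overlapped. At 18 h the Vehicle rats lay close together at 11.75, 11.72 and 11.70, whereas the Mild PE rats read 10.77, 10.57, 10.85 and 10.30 and the Severe PE rats 10.26, 10.27, 10.11 and 10.58. Every PE rat at 18 h was below every Vehicle rat of either time. Sod3 fell by 1.10 in 18-h Mild PE (SE 0.14, 2.14-fold lower, adjusted p = 0.0391) and by 1.41 in 18-h Severe PE (SE 0.12, 2.66-fold lower, adjusted p = 0.00591). The 2 doses differed by −0.31 (95% interval −0.67 to 0.04, adjusted p = 0.418), which was not called. The Severe PE call held when any 1 of the 7 arrays was left out, and the Mild PE call held in 2 of 7.

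**Figure D2:**
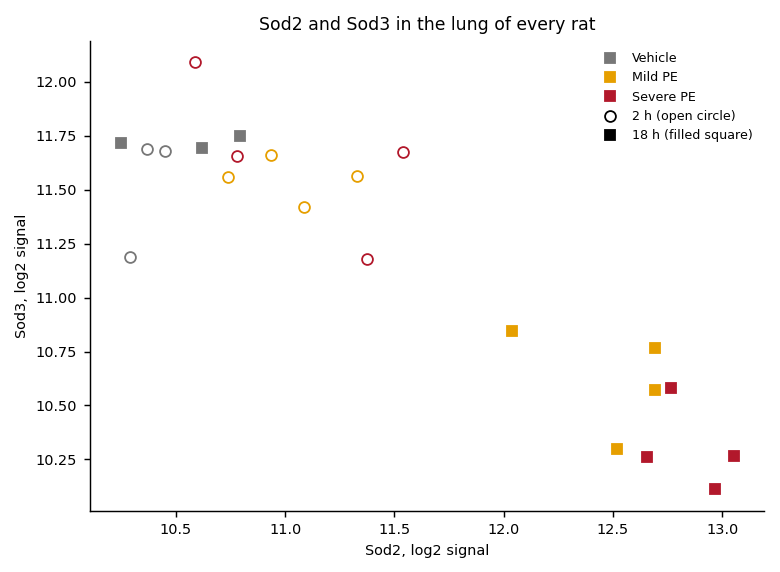
Sod3 against Sod2, both as log2 signal, with 1 point per rat, open circles for 2 h and filled squares for 18 h. The 8 PE rats at 18 h stand apart at the lower right, with Sod2 at 12.04 or more and Sod3 at 10.85 or less, while the 2-h PE rats have Sod3 at 11.18 to 12.09 and the Vehicle rats at 11.19 to 11.75.

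Gpx3, the secreted peroxidase, followed Sod3 in direction with a smaller size. The 18-h Vehicle rats read 14.35, 14.34 and 14.32, the Mild PE rats 13.89, 13.98, 14.13 and 13.79, and the Severe PE rats 13.82, 13.71, 13.71 and 13.84. The groups of PE rats lay below the Vehicle group without overlap. The difference was −0.39 in 18-h Mild PE (SE 0.09, adjusted p = 0.0912), and −0.56 in 18-h Severe PE (SE 0.05, adjusted p = 0.00786). The latter passed the p threshold, but at 1.48-fold it was just under the fold threshold, so Gpx3 was not called. The 11 rats of the 2-h groups read from 13.92 to 14.28, with differences of 0.10 and 0.04 from Vehicle that did not pass.

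In whole lung, fewer cells of a type and less RNA per cell cannot be told apart, and single markers of several cell types were called in the same comparison. The summed signal of 7 neutrophil markers ranged from 22203.5 to 30051.4 over the 18-h Vehicle rats, from 36678.2 to 55085.7 in 18-h Mild PE and from 49225.9 to 70494.4 in 18-h Severe PE, and 1 of the 7, Lcn2, was called higher in Severe PE (2.35, adjusted p = 0.0444). Without Lcn2, a sum added after the values were seen, the same ranges were 14039 to 27824, 15215.3 to 39073.5 and 21308.9 to 42240.5, and overlapped. That of 7 endothelial markers ranged from 43748.1 to 49207.8, from 32492.7 to 40252.7 and from 28311 to 34878.4 in the same order, with Vwf and Tie1 called lower in Severe PE. For 5 alveolar type I markers the ranges were 67021.5 to 77937.3, 50247.2 to 61537.7 and 50593.5 to 62238.3, with Cav1 called lower. The 6 smooth muscle markers had overlapping sums (17015.1 to 24749.1, 22335.6 to 28333.7 and 18419.4 to 31795) and none was called, and the same held for 7 macrophage markers (36518.1 to 45316.8, 37889.6 to 42953.5 and 38098.2 to 43418.1). All these sums are of deposited linear signals without quantile normalization, unlike the log2 values. They carry differences in intensity between arrays, and the brightest markers weigh most. The median log2 difference from 18-h Vehicle was 0.35 in Mild PE and 0.40 in Severe PE for the macrophage markers. For the smooth muscle markers it was 0.41 and 0.19. Of 6 alveolar type II markers Lamp3 was called higher in Severe PE (1.05, adjusted p = 0.0399), and their sums overlapped (100813 to 141093, 101024 to 112626 and 111352 to 130250). None of 3 red cell markers was called, with sums of 32676 to 45929.3, 28936.3 to 35293.2 and 24584.6 to 36084. None of these markers was under the floor in all rats of a group. The part of cell numbers in the change of Sod2, Sod3 or Gpx3 was not tested.

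Txnrd1 and Srxn1, members of the thioredoxin system, were called higher in 18-h Severe PE and not in 18-h Mild PE. Txnrd1, thioredoxin reductase of the cytosol, uses NADPH to return thioredoxin to its reduced form. The 18-h Vehicle rats read 10.19, 10.56 and 10.20, the Mild PE rats 11.03, 11.03, 10.77 and 11.21, and the Severe PE rats 11.09, 11.32, 11.22 and 11.11. The PE rats lay above the Vehicle rats without overlap. Txnrd1 was 1.82-fold higher in 18-h Severe PE (0.87, SE 0.12, adjusted p = 0.0155), and the call held when any 1 of 7 arrays was left out. In 18-h Mild PE the difference of 0.69 (SE 0.14, adjusted p = 0.0795) did not pass, and the difference between doses was 0.18 (95% interval −0.07 to 0.42, not called). The other probe set of Txnrd1 gave 0.87 (adjusted p = 0.0676) in 18-h Mild PE and 1.03 (adjusted p = 0.0225) in 18-h Severe PE, and its call in Severe PE held in 4 of 7 fits that left out 1 array. Over all 11 rats at 2 h the main probe set read 10.38 to 10.85, and the differences of 0.21 and 0.13 from Vehicle were not called.

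Srxn1 encodes sulfiredoxin, which repairs overoxidised peroxiredoxins. Its 18-h Vehicle rats read 8.11, 7.81 and 7.38, the Mild PE rats 8.53, 8.20, 8.39 and 8.84, and the Severe PE rats 8.45, 8.72, 9.0 and 9.09. The Vehicle and PE rats did not overlap, but the gap between them was small. Srxn1 was 2.06-fold higher in 18-h Severe PE (1.04, SE 0.23) with an adjusted p of 0.0478, close to the threshold, and the call was lost in each of the 7 fits that left out 1 array (differences from 0.85 to 1.22, adjusted p from 0.0551 to 0.114). A dimmer probe set of the gene gave nearly the same difference, 1.01 (SE 0.13, adjusted p = 0.0138), and its call held in all 7 such fits. In 18-h Mild PE the main probe set gave 0.72 (SE 0.22, adjusted p = 0.166). The 2-h rats spread widely, from 7.64 to 8.26 in Vehicle, 7.77 to 8.88 in Mild PE and 7.76 to 8.91 in Severe PE, and the groups overlapped. The third Srxn1 probe set was under the floor of 16 on 18 of 22 arrays and has no usable level.

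**Figure D3:**
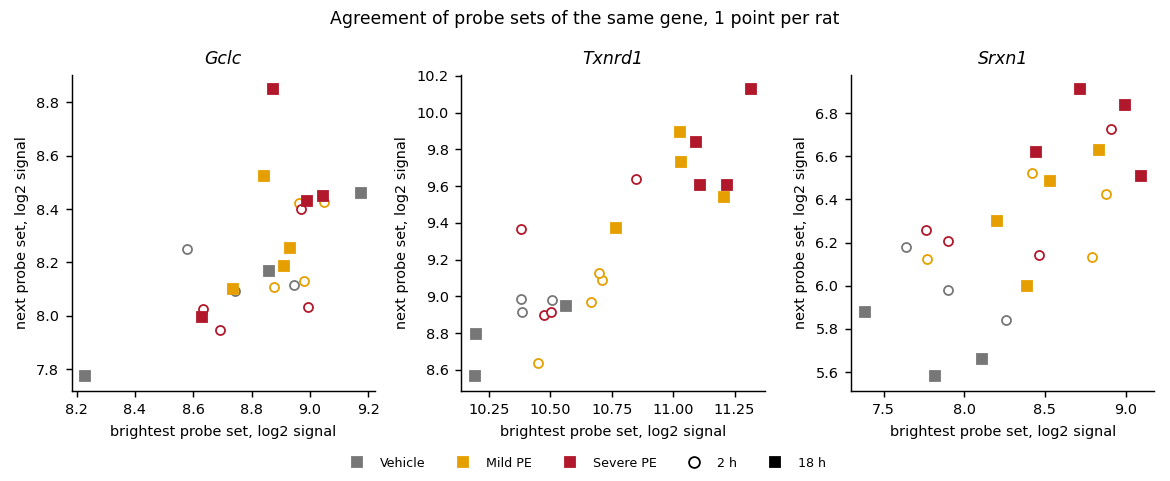
Log2 signal of the next brightest probe set against that of the brightest probe set of the same gene, for the 3 members with more than 1 usable probe set, with 1 point per rat (open circles 2 h, filled squares 18 h). In Txnrd1 and Srxn1 the 18-h PE rats are higher than the 18-h Vehicle rats on both axes, while in Gclc the groups are mixed.

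Nqo1, a quinone reductase and a widely used readout of NRF2 activity, was lower in the PE lungs. At 18 h the Vehicle rats read 12.19, 12.16 and 12.30, the Mild PE rats 11.63, 11.46, 11.32 and 11.77, and the Severe PE rats 11.50, 11.59, 11.63 and 11.70. No PE rat reached the level of a Vehicle rat. Nqo1 fell by 0.61 in 18-h Severe PE (SE 0.07, 1.53-fold lower, adjusted p = 0.0104), which is near the fold threshold. The call was lost without 18-h Vehicle rat 3 and without 18-h Severe PE rat 1, through the fold and not the p (adjusted p = 0.0330 and 0.0219). In 18-h Mild PE the difference of −0.67 (SE 0.12, 1.59-fold lower, adjusted p = 0.0637) was as large but did not pass. At 2 h the Mild PE rats (11.72, 11.64, 11.63 and 11.55) lay below the Vehicle rats (12.13, 11.92 and 12.07) without overlap, with a difference of −0.41 (SE 0.07, adjusted p = 0.0949), while the Severe PE rats (12.04, 11.81, 12.04 and 11.63) overlapped with Vehicle. The order of the 2-h means was Mild PE (11.63 ± 0.07), Severe PE (11.88 ± 0.20) and Vehicle (12.04 ± 0.11), and the step between the doses, 0.25, was not called (adjusted p = 0.394).

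Nfe2l2, the gene of NRF2 itself, read 10.38, 10.64 and 10.85 in the 18-h Vehicle rats, 11.47, 11.35, 10.92 and 11.41 in 18-h Mild PE and 11.03, 11.36, 11.36 and 10.95 in 18-h Severe PE. The PE rats were all above the Vehicle rats of that time. The differences of 0.66 (SE 0.18, adjusted p = 0.128) and 0.55 (SE 0.16, adjusted p = 0.0968) did not pass the test. At 2 h the Vehicle rats alone covered 10.62 to 11.47 and the Severe PE rats 10.64 to 11.98, so the groups could not be separated.

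Gclc and Gclm encode the catalytic and the modifier subunit of glutamate-cysteine ligase, the limiting enzyme of glutathione synthesis. Gclc read 8.23, 9.18 and 8.86 in the 18-h Vehicle rats, 8.84, 8.93, 8.74 and 8.91 in Mild PE and 8.63, 9.04, 8.99 and 8.88 in Severe PE, so the PE rats fell inside the range of the Vehicle rats. Gclm read 9.46, 8.23 and 9.39 in the 18-h Vehicle rats, 9.14, 9.15, 9.08 and 9.32 in Mild PE and 9.33, 9.07, 9.45 and 9.43 in Severe PE. In each gene 1 Vehicle rat was far below the other 2, rat 1 for Gclc and rat 2 for Gclm, and this sets the wide intervals. On the array of rat 1 the Gapdh control read low at its 5′ end, by 0.638 below the 3′ end in log2. Whether this bears on its low Gclc value was not tested. The difference in 18-h Severe PE was 0.13 (95% interval −0.46 to 0.72) for Gclc and 0.30 (−0.51 to 1.10) for Gclm, and both intervals include a rise and a fall. Without the low Vehicle rat the differences were −0.13 for Gclc and −0.10 for Gclm. The dimmer Gclc probe set gave 0.30 (95% interval −0.31 to 0.91).

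**Figure D4:**
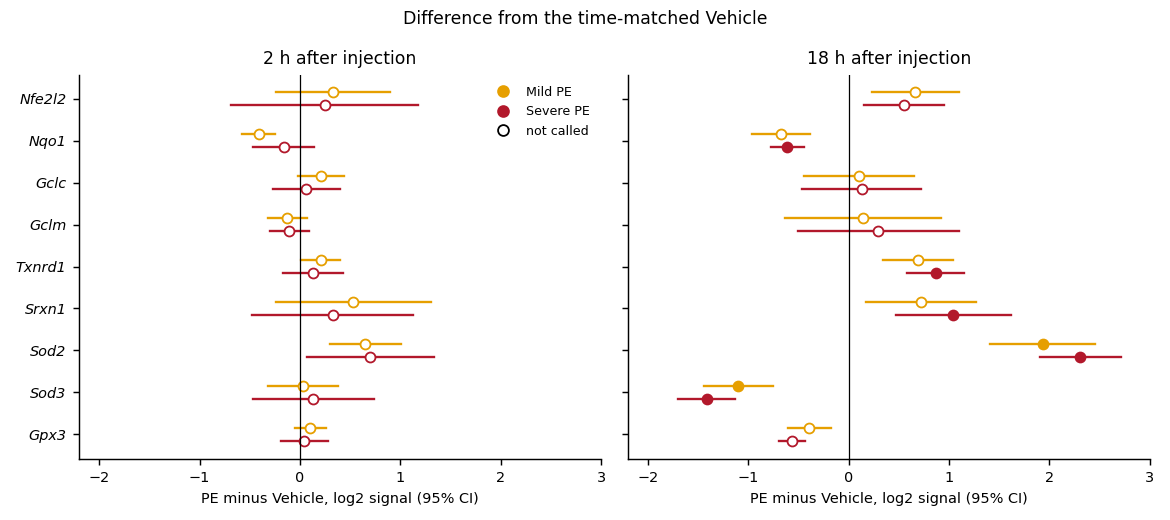
Difference of Mild PE (orange) and Severe PE (red) from the Vehicle group of the same time on the log2 scale, with the 95% interval of the limma fit, for the main probe set of each gene. Filled points are called, and at 18 h these are Sod2, Sod3, Txnrd1, Srxn1 and Nqo1 in Severe PE and Sod2 and Sod3 in Mild PE, while all points at 2 h are open.

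The comparison of doses asks whether Severe PE differs from Mild PE at the same time. None of the 9 members was called at 2 h (background 0.438%) or at 18 h, where 0 of all 31042 probe sets (0%) were, with 4340 at an unadjusted p under 0.05. Among the members 1 had an unadjusted p under 0.05 at 2 h (Nqo1), where 3824 of all probe sets did, and 0 had one at 18 h. For the comparison of 18-h with 2-h Vehicle none was called either (background 0.0161%). Only Gpx3 had an unadjusted p under 0.05, as did 4815 of all probe sets, with a difference of 0.28 (SE 0.06, adjusted p = 0.213). Over the 9 members the 18-h minus 2-h Vehicle difference ran from −0.39 (Nfe2l2) to 0.28 (Gpx3), with −0.29 for Gclm, 0.18 for Sod2 and −0.11 for Txnrd1.

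In the test over the 3 groups of a time, 5 members were called at 18 h (Sod2, Sod3, Txnrd1, Nqo1 and Srxn1, background 7.64%) and none at 2 h (background 0.76%). Gpx3 had an adjusted p of 0.00921 at 18 h and again missed the fold threshold, and Nfe2l2 had 0.0734. In the model of time and dose over all 22 rats, 4 members were called for at least 1 term by their main probe set. Nqo1 was called for dose alone (adjusted p = 0.000601), where 9.93% of all probe sets were called. Srxn1 was not called for dose by its main probe set (adjusted p = 0.0675), but its next brightest one was (0.00335). Txnrd1, Sod2 and Sod3 were called for time (adjusted p = 0.00418, 7.55e-06 and 0.000109, background 17.6%) and for dose (0.00207, 3.53e-05 and 0.00645). They were also called for the interaction of time and dose (0.0465, 0.0139 and 0.0061, background 3.62%). The second Txnrd1 probe set was called for time and dose but not for the interaction (adjusted p = 0.106).

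The change of a PE effect from 2 h to 18 h was tested directly, at an adjusted p under 0.05 with no fold threshold. The Severe PE effect differed between the times for 4 of 9 members (background 6.42%). It was greater at 18 h by 1.61 for Sod2 (SE 0.31, adjusted p = 0.00513) and by 0.74 for Txnrd1 (SE 0.17, adjusted p = 0.0161), and lower at 18 h by −1.54 for Sod3 (SE 0.25, adjusted p = 0.00187) and by −0.61 for Gpx3 (SE 0.12, adjusted p = 0.00585). These 4 calls held when any 1 of the 14 arrays of the contrast was left out. For Gpx3 part of the contrast lay in the Vehicle groups, with means of 14.06 at 2 h and 14.34 at 18 h. Its Severe PE means were 14.10 and 13.77. The Mild PE effect differed for 1 of 9 (background 0.792%), with −1.13 for Sod3 (SE 0.25, adjusted p = 0.0475), and this call held in 1 of 14 such fits. For Nqo1, Srxn1, Nfe2l2, Gclc and Gclm no difference of effects between the times was called. The second Txnrd1 probe set gave 0.78 (SE 0.26), which was not called (adjusted p = 0.0845).

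A list of 84 further genes of the pathway, of which 75 were measured, was read in the same fits. In the pairwise comparisons at 2 h and between doses none of the 75 was called. The test over the 3 groups at 2 h called 1 of the 75, where 0.76% of all probe sets were called. It was Maff, a small MAF partner of NRF2 named here after its values were seen (adjusted p = 0.0455). Its differences from Vehicle, 1.15 in Mild PE (adjusted p = 0.161) and 1.34 in Severe PE (adjusted p = 0.157), were not called. In 18-h Mild PE, where 1.03% of all probe sets were called, 1 of the 75 was higher and 1 lower, namely Prdx5, a peroxiredoxin of mitochondria and peroxisomes (0.60, SE 0.08, adjusted p = 0.0422), and Gstt1, a glutathione transferase (−0.71, SE 0.07, adjusted p = 0.0282). In 18-h Severe PE 5 were higher and 10 lower, where 3.21% of all probe sets were called higher and 3.91% lower. The median difference over the 75 was −0.05, and the 0.00 over all probe sets is all but fixed by the normalization.

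Of the genes higher in 18-h Severe PE, Hmox1, heme oxygenase 1, changed the most, with a difference of 2.05 (SE 0.19, adjusted p = 0.00786). Prdx5 rose by 0.81 (SE 0.12, adjusted p = 0.0190), and Me1, malic enzyme, which supplies NADPH, by 0.92 (SE 0.15, adjusted p = 0.0224). The others were Glrx and Pgd. Of the genes lower, 6 were glutathione transferases, among 17 measured, of which none was higher, beside the 3.91% of all probe sets called lower. The leading ones were Gstm7 (−1.91, SE 0.22, adjusted p = 0.0107), Gstm2 (−0.90, SE 0.11, adjusted p = 0.0117) and Gstt1 (−0.68, SE 0.11, adjusted p = 0.0237), and the median difference of the 17 was −0.53. The other genes lower were Aldh3a1, Akr7a2 and Akr7a3, reductases or dehydrogenases of reactive aldehydes, and Bach1, a repressor at AREs. The test over the 3 groups at 18 h called 14 of the 75, where 7.64% of all probe sets were called. In it Aldh3a1 (adjusted p = 0.0555), Akr7a2 (0.0844) and Bach1 (0.188) were not called, and not all of the 6 transferases were. The transferases it called were Gsta4, Gstm1, Gstm2, Gstm7 and Gstt1. It also called Gss, Ggt1 and Nqo2, which were not called in the pairwise comparisons. These further genes were not refitted with single arrays left out. Genes of glutathione synthesis, transport and recycling had a median of 0.54, with 1 of 11 called higher, and 2 of 5 genes of NADPH supply were called higher, beside the 3.21% of all probe sets. Beside the transferases, 1 of 4 club and ciliated cell markers, Cyp2f4, was called lower in 18-h Severe PE by −2.18 (adjusted p = 0.0196). The summed deposited signal of these 4 markers was 33315.3 to 47458.6 in 18-h Vehicle, 28572.7 to 37461.5 in Mild PE and 28894.2 to 33876.4 in Severe PE. Their part in the result was not tested.

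**Figure D5:**
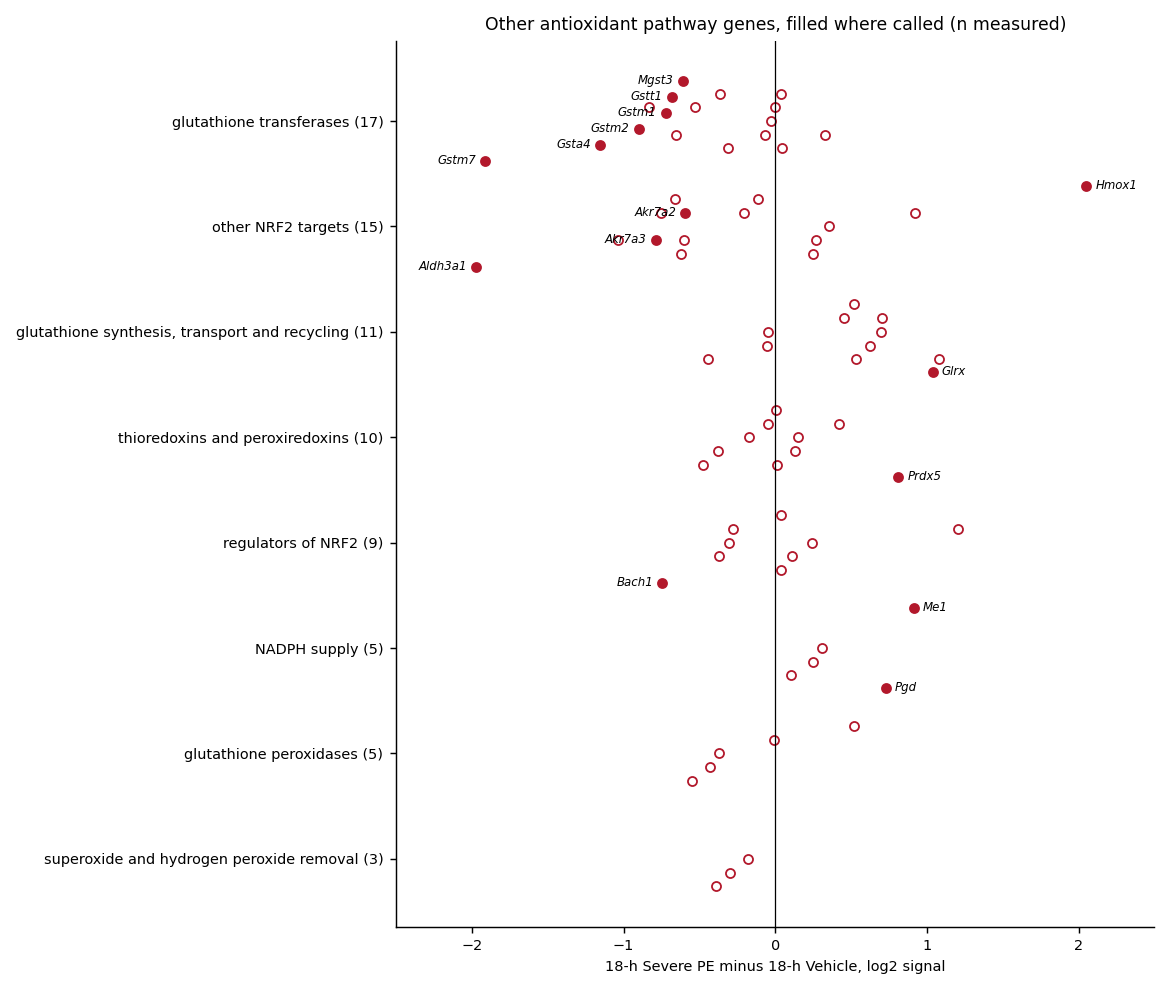
Difference of 18-h Severe PE from 18-h Vehicle on the log2 scale (horizontal axis) for the 75 further pathway genes, 1 point per gene in rows by list, with the number measured and the 15 genes called filled and named. Filled points in the row of glutathione transferases are all to the left of 0, and Hmox1 lies farthest to the right, at 2.05.

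For each member called against Vehicle, the 2 genes with the most similar course over the 22 arrays were found by Pearson's r among 9868 genes with a mean log2 signal of at least 7. They were Rab5if and Ddx39a for Sod2 (r of 0.96 for both), Dmpk and Plac9 for Sod3 (0.97 for both), Vcan and Atp2a2 for Txnrd1 (0.95 and 0.94), Ctss and Vcan for Srxn1 (0.80 for both), and Azgp1 and Lratd1 for Nqo1 (0.84 and 0.83). These values describe likeness only. The 22 arrays fall into the same 6 groups for all genes.

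By RefSeq's GRCr8 table, matched by gene symbol, Nfe2l2 lies on chromosome 3 at 81001529 to 81031165, Srxn1 on chromosome 3 at 161064812 to 161070372, Sod2 on chromosome 1 at 50043323 to 50050168, Gclm on chromosome 2 at 213032135 to 213052192 and Txnrd1 on chromosome 7 at 22717620 to 22802553. Gclc lies on chromosome 8 at 87510251 to 87548896, Gpx3 on chromosome 10 at 39529335 to 39537406, Sod3 on chromosome 14 at 62822865 to 62828602 and Nqo1 on chromosome 19 at 52205374 to 52220267. No pair of members is adjacent. On 4 arrays the Gapdh control read low at its 5′ end, by 0.491 and 0.638 below the 3′ end in log2 for rat 4 of 18-h Mild PE and rat 1 of 18-h Vehicle, and by 0.346 and 0.525 for rat 3 of 2-h Vehicle and rat 1 of 2-h Severe PE. Without the 18-h ones, 0 members were called in 18-h Mild PE, and the calls of Sod2, Sod3, Txnrd1 and Nqo1 in 18-h Severe PE held. Epithelial markers of the lung were present in all rats, with 6 alveolar type II markers of a summed signal of 82339.9 or more.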

How the data were processed

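Values deposited by the authors are linear probe set signals (intensity) of 1-colour Affymetrix rat arrays, scaled per array to a common trimmed mean. The methods describe GC-RMA log2 values, which these are not, and the summarisation software is not given in the sources used here. After 57 control probe sets were left out, signals under 16 (13.6% to 17.3% per array) were set to 16, so that 4 is the lowest log2 value, and the arrays were quantile normalized. Tests used limma 3.58.1 in R 4.3.3 (lmFit, eBayes, two-sided, 2 groups per fit), adjusted by Benjamini-Hochberg over 31042 probe sets. They were also run on simulated data, with 100 probe sets changed by each amount. Every group had the same mean and SD for a probe set before the change, so the rates below do not rank the comparisons. Changed probe sets had a mean log2 signal above 6. They were far fewer than the 2212 called in 18-h Severe PE, and the adjusted p depends on this number. An added difference of 1 was recovered in 20% for 2-h Mild PE and 32% for 2-h Severe PE against Vehicle. At 18 h it was recovered in 23% for Mild PE and 33% for Severe PE. An added 2 was recovered in 66%, 76%, 56% and 74%, in the same order. A gene not called may therefore still differ. Symbols came from the array annotation (20826 probe sets with 1 symbol, 436 with several, 9780 with none). The members and lists were chosen with earlier results of these data known. Named genes are the members, up to 6 pathway genes called per comparison by smallest adjusted p, and the 2 genes most like each member called. Other pathway genes and markers called were named after their values were seen. The replicate numbers did not pair the rats (correlation of residuals −0.273 to 0.123, median −0.00967, over 51 pairs of arrays). Alternatives were the deposited scaling alone, median centring, a floor of 64, a variance trend and dim probe sets left out. Others were a plain t-test on the same values, 1 fit on all 22 arrays, a replicate block and the mean of all probe sets. The rest left out the 4 low 5′ arrays, or each array in turn.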

Additional observations from a re-analysis of the deposited data

Results flagged for a closer look

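The effect of PE differed between the times for 4 members, in a direct test of the difference (18 h minus 2 h, log2). For Severe PE the difference was 1.61 for Sod2, 0.74 for Txnrd1, −1.54 for Sod3 and −0.61 for Gpx3, and for Mild PE it was −1.13 for Sod3.

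Each member probe set was checked in each group of 4 rats, which gave 50 sets of 4 values from the same rats. In 2 of the 50 sets 1 rat stood apart from the other 3, and chance alone gives about 1 in 20. The Txnrd1 signal of 1 rat in 2-h Mild PE was 10.45, below the other 3 (10.67 to 10.71). The dimmest Srxn1 probe set read 4.47 in 1 rat of 18-h Mild PE, with the other 3 set to the floor, so the chance rate does not apply to it.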

How the results depend on the processing

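Of 1080 member values recomputed under the alternatives to the pairwise comparisons, no called value changed sign, 44 uncalled ones did, 35 lost a call and 4 gained one. In 18-h Mild PE the 2 members called became 1 with a floor of 64 (Sod3 lost) and 4 in 1 fit on all 22 arrays (Nqo1 and Txnrd1 gained). The count was 0 with a plain t-test, with the replicate block and without the low 5′ arrays. That t-test used the values of this report and not the GC-RMA values of the methods, so it does not repeat their result. Leaving out 1 array gave 0 to 2, with 0 without 18-h Vehicle rat 1, 2 or 3 or Mild PE rat 1 or 2, and 1 without Mild PE rat 4. In 18-h Severe PE the 5 members called became 0 with the replicate block, where 0 of all 31042 probe sets were called and few residual degrees of freedom remain, and 3 to 5 when 1 array was left out, with 3 without Vehicle rat 3 (Nqo1 and Srxn1 lost) or Severe PE rat 1 (the same members). The calls of Sod2, Sod3 and Txnrd1 in Severe PE held under 16 of 17 alternatives, that of Nqo1 under 14 and that of Srxn1 under 6. The counts of members called at 2 h, between doses, between Vehicle groups, over 3 groups and in the model of time and dose stayed within 1.5 times. The cause of these changes was not tested.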
